A study of Mus musculus with 16 samples.

Results

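The genes described here are 10 transporters of glucose and other hexoses, with 1 partner protein among them: Slc5a1, Slc5a2, Slc5a10, Slc2a1, Slc2a2, Slc2a3, Slc2a4, Slc2a5, Slc2a9 and Pdzk1ip1. They were chosen by name, and all 10 were found in both count tables, among 24722 genes listed for glomeruli and 34264 listed for cortex. The RNA came from isolated glomeruli, the capillary tufts that filter blood, and from kidney cortex, most of which is proximal tubule. Control mice (G-Con for glomeruli, K-Con for cortex) were compared with mice made diabetic by HFD/STZ, a high-fat diet with the beta cell toxin streptozotocin (G-STZ and K-STZ). All groups were WT, aged 24 weeks and of batch 1, with 4 libraries in each of the 4 groups. The labels number the libraries but do not say that each came from its own animal, so the p-values may reflect technical spread alone.

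Glucose that passes the glomerular filter is taken back by the proximal tubule. Sodium-glucose cotransporters of the SLC5 family carry it across the luminal membrane against its gradient: SGLT2 (Slc5a2) does most of this work in the early segments, helped by its partner MAP17 (Pdzk1ip1), and SGLT1 (Slc5a1) takes up what remains further along. Facilitative carriers of the SLC2A (GLUT) family then let sugar leave through the basolateral side, mainly GLUT2 (Slc2a2), while other members supply glucose to podocytes, endothelium, muscle and fat or carry fructose and urate.

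Total counts ranged from 36339294 to 41876031 per glomerular library and from 57473100 to 72352656 per cortex library. Control glomerular libraries 3 and 4 and diabetic glomerular libraries 1 and 4 were far closer to each other (chi-square of counts per gene 2.76 and 6.69) than the other pairs of their groups (45.7 to 84.4 and 66.2 to 97.9), and each pair was summed and counted as 1 sample. This left n = 3 control samples (1, 2 and 3+4) and n = 3 diabetic samples (1+4, 2 and 3) of glomeruli, beside n = 4 and 4 of cortex. Diabetic glomerular samples 1+4 and 3 stood apart in their tubule markers. The 12 proximal tubule markers (among them megalin, Lrp2, and the phosphate transporter Slc34a1) summed to 81.9 to 109 CPM in control glomeruli and to 1242, 148 and 607 CPM in diabetic samples 1+4, 2 and 3. The 12 markers of loop, distal tubule and collecting duct summed to 56.8 to 79.9 CPM and to 1857, 82.4 and 841 CPM, with no marker of either list at 0 in any glomerular sample. Xist, the X-inactivation RNA, was also higher in these samples, at 61.8, 7.53 and 25.6 CPM in samples 1+4, 2 and 3 against 6.63 to 12.3 CPM in controls (1.72 ± 0.69, adjusted p = 0.0938, not called), while the Y-linked gene Ddx3y was at 74.5 to 87.0 CPM in diabetic and 74.4 to 109 CPM in control samples. CPM are counts per 1e+06 scaled reads, after TMM scaling for library composition. Single proximal tubule markers differed in diabetic sample 2. Lrp2 was at 23.5 CPM (5.15 to 6.90 in controls) and Ggt1 at 38.4 CPM (4.35 to 6.35). Slc34a1, at 18.4 CPM, lay within its control range (16.0 to 18.7). In cortex, control library 4 stood apart from control libraries 1 to 3 (chi-square per gene 77.7 to 96.2, against 18.4 to 28.4 among these). All 10 podocyte markers were called higher in control glomeruli than in control cortex, as the tissue labels say, and all 12 proximal tubule markers were called lower.

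In control mice the transporters were split between the 2 tissues. All 10 differed between control glomeruli and control cortex in 1 model of the 4 groups (edgeR, adjusted p under 0.05), where 78.4% of genes tested were called. Only Slc2a1 and Slc2a3 were called higher in glomeruli (38.7% of genes tested) and the other 8 were called lower (39.7%). The groups did not overlap for any of the 10, as for 75.1% of genes tested. Of all calls 49.4% were higher in glomeruli, and 64.9% with log2(FPKM + 1) values, which moved the median of all genes by 0.32 and left each of the 10 directions as it was. The tables came from different annotations and counting, so a level can differ between tissues for that reason alone, and in bulk samples fewer cells of a type and less RNA per cell cannot be told apart. The log2 differences, glomeruli minus cortex, were -10.20 ± 0.88 (SE) for Slc2a5, -9.53 ± 0.87 for Slc2a2, -9.34 ± 1.07 for Slc5a10, -8.69 ± 0.73 for Slc5a1 and -8.44 ± 0.91 for Slc5a2. Smaller ones were found for Pdzk1ip1 (-7.16 ± 0.38), Slc2a4 (-5.06 ± 0.47) and Slc2a9 (-3.15 ± 0.29). Slc2a1 stood 1.69 ± 0.17 and Slc2a3 1.93 ± 0.32 higher in glomeruli. The direction for Slc2a3 is uncertain because of Gm4482, a pseudogene within it on the same strand. Gm4482 has its own counts in cortex (2.16 to 3.39 CPM, beside 0.869 ± 0.285 for Slc2a3). It had no value under that name in glomeruli, where Slc2a3 was at 4.12 ± 0.876 CPM and may include its reads.

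Ranked by FPKM, which divides by gene length and so allows genes to be compared, Slc2a1 led in control glomeruli at 48.9 ± 11.1 FPKM (SD, n = 3), well above Pdzk1ip1 at 2.01 ± 0.790 and Slc5a2 at 0.838 ± 0.162 FPKM. The remaining 7 lay between 0.0278 (Slc2a5) and 0.684 FPKM (Slc2a9), and the ranges of Slc5a2, Slc2a9 and Slc2a3 overlapped from each to the next. In control cortex Slc5a2 led at 181 ± 40.0 FPKM (n = 4), followed by Pdzk1ip1 at 142 ± 17.2 and Slc5a10 at 55.6 ± 10.8 FPKM. Next came Slc2a2 (33.0), Slc2a5 (24.1), Slc5a1 (19.3), Slc2a1 (9.17), Slc2a4 (7.46), Slc2a9 (4.02) and Slc2a3 (0.108 FPKM). Neighbours whose ranges overlapped were Slc5a2 with Pdzk1ip1, Slc2a2 with Slc2a5, Slc2a5 with Slc5a1, and Slc2a1 with Slc2a4. Diabetic cortex had another leader: Slc5a10 at 174 ± 29.5 FPKM, whose range overlapped that of Pdzk1ip1 (155 ± 16.8), ahead of Slc5a2 at 93.1 ± 16.3 FPKM.

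**Figure D1:**
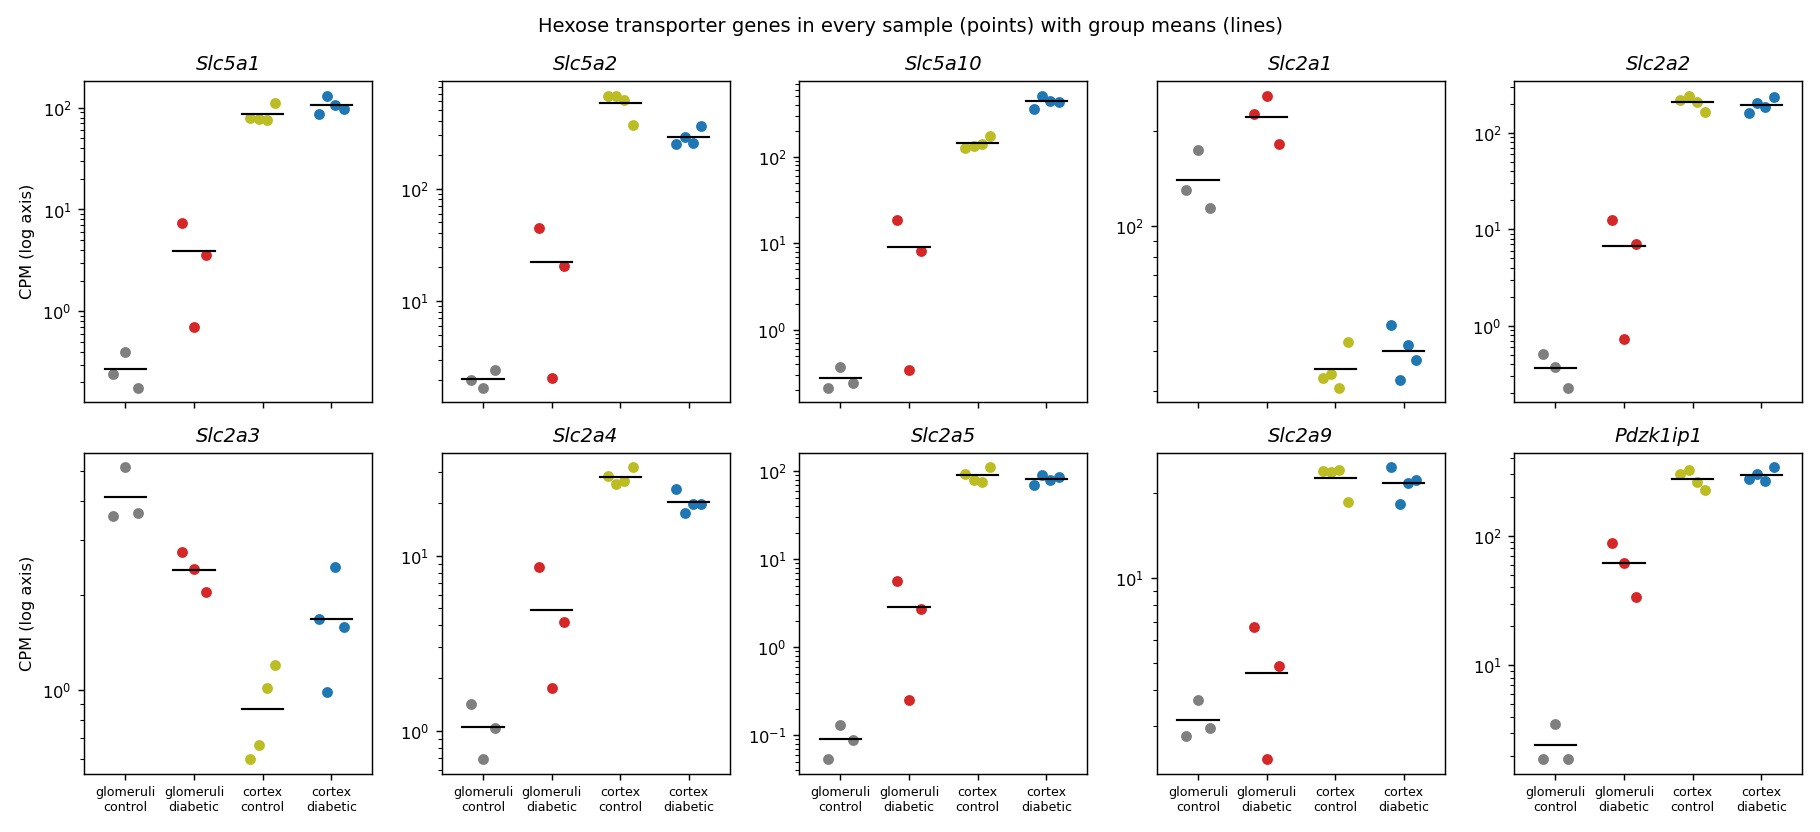
CPM (log axis, a separate scale for each gene) of the 10 transporter genes in control and diabetic glomeruli (3 samples each) and control and diabetic cortex (4 libraries each); points are samples and lines are group means. Slc2a1 and Slc2a3 are higher in glomeruli than in cortex among controls and the other 8 are lower, and in most panels the diabetic glomerular sample 2 lies near the controls while samples 1+4 and 3 lie above them.

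In diabetic cortex the sodium-coupled transporters moved in opposite directions. Slc5a10 rose, Slc5a2 fell, and of the facilitative carriers Slc2a4 fell. These 3 of 10 were called, against 20.1% of the 19228 genes tested: 1 higher (10.8% of genes tested) and 2 lower (9.29%), and their groups did not overlap (24.9%). The median log2 fold change of the 10 was 0.02, beside -0.0036 over all genes tested. Of all calls 53.7% were higher, and 65.5% with log2(FPKM + 1) values.

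Slc5a2, which encodes SGLT2 (GRCm38 chromosome 7, 128265657 to 128272430, plus strand), was at 672, 661, 614 and 366 CPM in control cortex libraries 1 to 4. In diabetic libraries 1 to 4 it was at 248, 287, 255 and 361 CPM. Every diabetic library lay below every control library, but control library 4 came within a few CPM of diabetic library 4. The log2 fold change was -1.01 ± 0.20 (adjusted p = 0.00844 by the edgeR quasi-likelihood F test), and without control library 4 it was -1.17 ± 0.12. Over the 15 cortex alternatives it ranged from -1.17 to -0.93. A coding gene on the opposite strand, BC017158, overlaps Slc5a2 and was at 26.1 to 33.1 CPM in cortex. Whether counting used strand is not given in the sources used here, so reads of the overlap may be shared. In glomeruli BC017158 had no value under that name, so the low glomerular Slc5a2 counts given below are uncertain too.

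Slc5a10 encodes SGLT5, a kidney cotransporter of mannose and fructose (chromosome 11, 61672781 to 61720826, minus strand). It stood at 125, 132, 142 and 174 CPM in control libraries 1 to 4 and at 357, 511, 448 and 433 CPM in diabetic ones. The highest control library was far below the lowest diabetic one. Its log2 fold change was 1.61 ± 0.13 (adjusted p = 0.000129), a 3.05-fold rise. The opposite-strand genes Grap (3.00 to 6.46 CPM in cortex) and Fam83g (11.0 to 21.7 CPM) overlap it at much lower levels in cortex. In glomeruli Grap was at 5.62 to 15.4 CPM and Fam83g at 0.432 to 15.6 CPM, above Slc5a10 in control samples, so the glomerular Slc5a10 counts are uncertain. In RefSeq (GRCm38.p6), where a sequence was found for 7 of the 10 genes, Slc5a10 has 2 start sites. Of the 250 bases before the outer one, the 27 nearest the start site lie inside the annotated gene and are not printed. The other 223 (chr11:61720827-61721049, minus strand) are shown because the largest cortical change among the 10 belongs to this gene. They are in lower case throughout since neither motif described next was found in them:

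Slc5a10: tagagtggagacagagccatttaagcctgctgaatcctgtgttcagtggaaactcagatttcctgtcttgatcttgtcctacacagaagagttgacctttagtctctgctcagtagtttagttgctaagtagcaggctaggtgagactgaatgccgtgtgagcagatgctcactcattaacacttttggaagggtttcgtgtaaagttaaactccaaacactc

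The motifs searched on both strands in the 250 bases before a RefSeq start site were CAAAGTCCA (half-site of HNF4) and CACGTG (E-box, a motif related to carbohydrate response elements). They were present in 0.384 and 6.02% of 32851 promoters. Pdzk1ip1 and Slc5a1 had 1 E-box each, and no match was found before either start site of Slc5a10 or before those of Slc2a1, Slc2a2, Slc2a5 and Slc2a9.

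Slc5a1 encodes SGLT1 (chromosome 5, 33104219 to 33162870, plus strand). Control libraries had 79.9, 77.7, 75.1 and 111 CPM and diabetic libraries 87.1, 131, 105 and 97.3 CPM. Control library 4 lay within the diabetic range, whereas controls 1 to 3 lay below it. The change did not pass the test (0.29 ± 0.15, adjusted p = 0.224), but did without control library 4 (0.44 ± 0.12, adjusted p = 0.0313). Without diabetic library 2 the change of Slc5a1 was 0.17 ± 0.14 (adjusted p = 0.482 by the same edgeR test). Only 1 of the 15 cortex alternatives called Slc5a1. Its E-box begins 143 bases before the start site, and the stretch (chr5:33103969-33104218, plus strand) is shown for comparison with that of Pdzk1ip1, with the motif in capitals:

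Slc5a1: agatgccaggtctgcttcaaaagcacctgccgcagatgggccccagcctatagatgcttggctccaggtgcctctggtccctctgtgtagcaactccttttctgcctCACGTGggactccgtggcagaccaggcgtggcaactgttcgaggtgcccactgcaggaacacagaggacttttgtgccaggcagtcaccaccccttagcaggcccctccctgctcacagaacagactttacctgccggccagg

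Within each cortex library the balance of these 3 genes shifted. Of their summed FPKM, Slc5a2 made up 76.2, 75.3, 73.1 and 55.7% in control libraries 1 to 4 and 33.2, 28.6, 29.0 and 37.6% in diabetic ones. Slc5a10 made up 17.4, 18.5, 20.6 and 32.4% and 58.6, 62.2, 62.5 and 55.2%. In all controls Slc5a2 was the larger, and in all diabetic libraries Slc5a10 was. The ratio of Slc5a10 to Slc5a2 FPKM was 0.335 ± 0.167 in control and 1.89 ± 0.339 in diabetic cortex (n = 4 each; exact two-sided permutation test p = 0.0286, the smallest that 4 against 4 allow; 0.0762 adjusted over the 8 ratios computed). Slc5a10 to Slc5a1 went from 2.92 ± 0.260 to 7.24 ± 0.412 with the same p in the exact permutation test. Slc5a1 to Slc5a2 (0.117 ± 0.0648 and 0.263 ± 0.0575, exact permutation p = 0.0571, adjusted 0.0914) had groups that overlapped through control library 4.

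**Figure D2:**
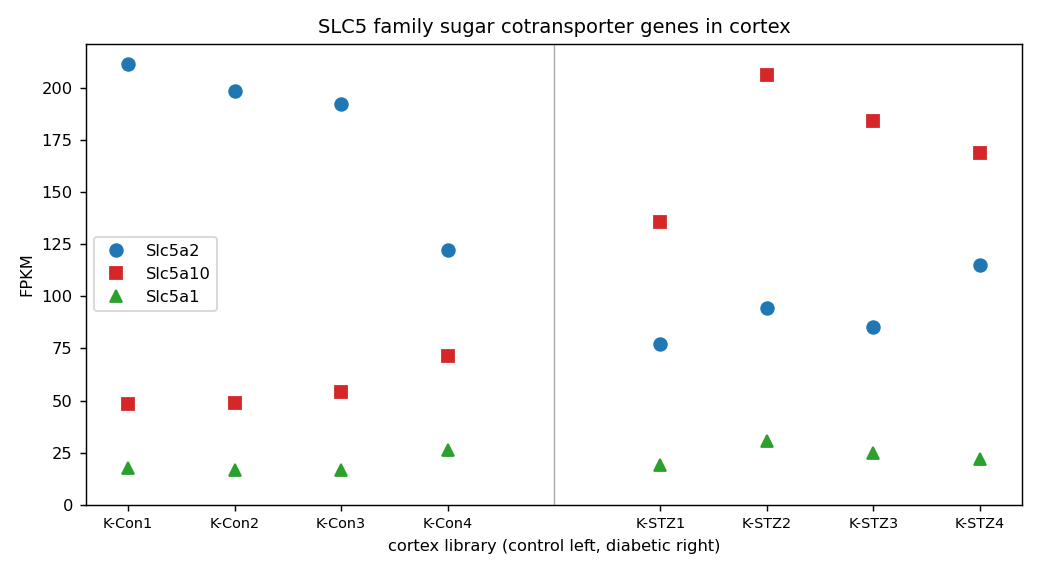
FPKM of Slc5a2 (circles), Slc5a10 (squares) and Slc5a1 (triangles) in each of the 4 control and 4 diabetic cortex libraries. Slc5a2 lies above Slc5a10 in every control library and below it in every diabetic one, with control library 4 (122 and 71.3 FPKM) the closest of the controls.

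Markers of other kinds moved in the same cortex libraries, where 10.8% of all genes tested were called higher and 9.29% lower. Of the 12 proximal tubule markers 6 were called lower, and their sum was 34387, 37285, 35280 and 25068 CPM in control libraries 1 to 4 and 21745 to 29231 CPM in diabetic ones. Markers of the proximal S1 to S2 segments had 2 of 8 lower (sums of 3099 to 4812 and 3693 to 4513 CPM), and those of S3 had 5 of 8 lower (5664 to 7011 and 3789 to 5408 CPM). Macrophage and myeloid markers had 9 of 10 higher (212 to 367 and 509 to 783 CPM). Red blood cell genes had 6 of 6 lower (759 to 1338 and 361 to 604 CPM). Per geometric mean of the 12 proximal tubule markers, the log2 change was -0.57 for Slc5a2 (exact permutation p = 0.0571), 2.02 for Slc5a10 (p = 0.0286), -0.07 for Slc2a4 (p = 0.771) and 0.33 for Slc2a2 (p = 0.0857), with n = 4 and 4 and adjusted p of 0.0914, 0.0762, 0.771 and 0.114. The part of the markers in these changes was not tested.

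Pdzk1ip1, which encodes the SGLT2 partner MAP17 (chromosome 4, 115088708 to 115093899, plus strand), was not called in cortex. It stood at 299, 324, 261 and 225 CPM in control and 274, 299, 266 and 340.3 CPM in diabetic libraries, and the groups overlapped widely (0.09 ± 0.12, adjusted p = 0.655). Slc5a2 fell in the same libraries, so the ranges of the 2 genes, which overlapped in control cortex by FPKM (122 to 211 for Slc5a2 and 122 to 159 for Pdzk1ip1), no longer did in diabetic cortex (77.1 to 115 and 139 to 177).

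Of the facilitative carriers in cortex, Slc2a4 alone was called. Slc2a4 encodes GLUT4, the insulin-responsive transporter of muscle and fat (chromosome 11, 69942539 to 69948188, minus strand). It was at 28.5, 25.8, 26.9 and 32.1 CPM in control and 24.1, 17.5, 19.8 and 19.8 CPM in diabetic libraries. No diabetic library reached the lowest control. Its log2 fold change was -0.48 ± 0.11 (adjusted p = 0.0113). The 7 adipocyte markers summed to 209 CPM in control library 3 and to 20.9 to 45.5 CPM in the 7 other cortex libraries, and Slc2a4 in that library was below controls 1 and 4 and above control 2. Slc2a4 was not called with log2(FPKM + 1) values and no filter (-0.39, adjusted p = 0.0608).

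Slc2a2, the basolateral carrier GLUT2 (chromosome 3, 28697903 to 28731359, plus strand), was at 220.1, 244, 207 and 165 CPM in control and 161, 202, 186 and 238 CPM in diabetic cortex. The ranges nearly coincided, and the log2 fold change was -0.09 ± 0.14 (adjusted p = 0.715). Slc2a5, the fructose carrier GLUT5 (chromosome 4, 150119283 to 150144169, plus strand), was at 92.2, 78.4, 75.8 and 111 CPM and at 69.3, 89.6, 80.2 and 86.3 CPM (-0.14 ± 0.13, adjusted p = 0.499). Slc2a9 encodes GLUT9, which carries urate (chromosome 5, 38349273 to 38503143, minus strand). Its values were 23.8, 23.6, 24.0 and 18.6 CPM in control and 24.6, 18.3, 21.7 and 22.1 CPM in diabetic cortex (-0.05 ± 0.11, adjusted p = 0.785).

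Slc2a1, the widely expressed carrier GLUT1 (chromosome 4, 119108711 to 119137983, plus strand), was at 33.0, 33.8, 30.7 and 42.8 CPM in control and 48.5, 32.4, 41.99 and 37.7 CPM in diabetic cortex (0.20 ± 0.13, adjusted p = 0.351). Slc2a3, the high-affinity carrier GLUT3 (chromosome 6, 122727809 to 122801640, minus strand), was the lowest of the 10 in cortex, with 0.600, 0.666, 1.01 and 1.201 CPM in control and 1.69, 0.981, 2.46 and 1.59 CPM in diabetic libraries. Diabetic library 2 lay among the controls. Slc2a3 did not pass the test (0.94 ± 0.34, adjusted p = 0.0754), but did without control library 4 (1.14 ± 0.35, adjusted p = 0.0396), without diabetic library 2 (1.13, 0.0487) and with DESeq2 (0.94, 0.0487). The pseudogene Gm4482 lies within Slc2a3 on the same strand and was at 2.16 to 3.39 CPM in cortex, above Slc2a3 itself, so the Slc2a3 counts are uncertain. Myeloid markers were higher in the same diabetic libraries, as given above, and their part was not tested.

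**Figure D3:**
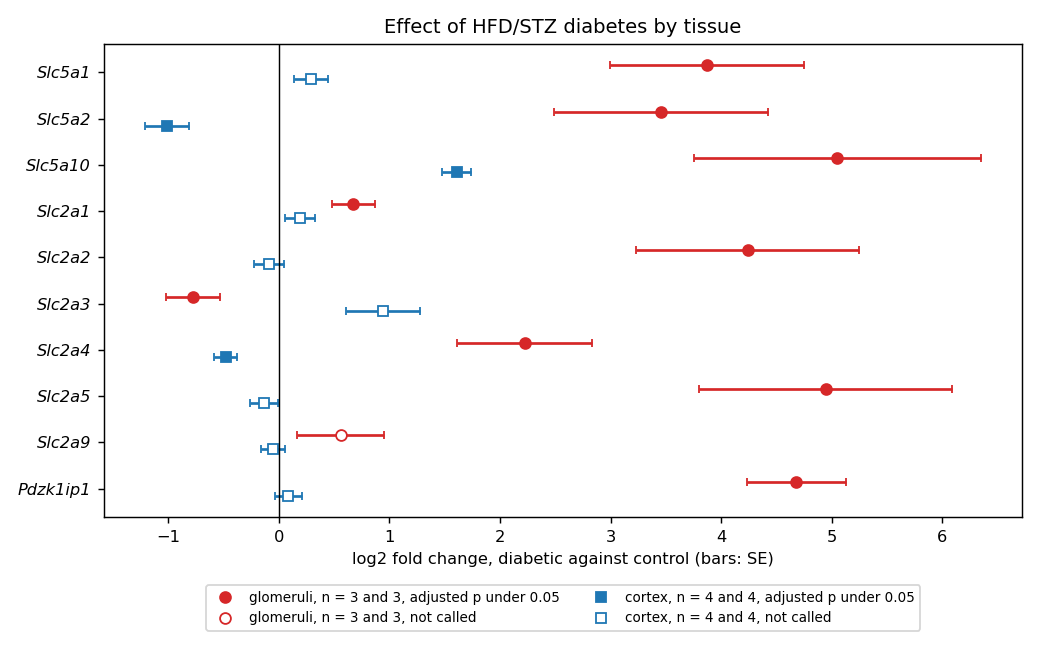
Log2 fold change of diabetic against control samples (x axis; bars are SE) for each of the 10 genes in glomeruli (circles, 3 against 3 samples) and cortex (squares, 4 against 4 libraries); filled symbols passed an adjusted p under 0.05. In cortex Slc5a10 (1.61), Slc5a2 (-1.01) and Slc2a4 (-0.48) are filled, and in glomeruli all but Slc2a9 are, with much longer bars for the tubular genes.

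In diabetic glomeruli most of the transporters were called higher, but 1 of the 3 diabetic samples stayed near control for most of them. Of the 10, 8 rose and 1 fell (edgeR, adjusted p under 0.05), against 37.5% of the 15238 genes tested, 19.4% higher and 18.2% lower. Groups did not overlap for 7 of the 10 (54.2% of genes tested). The median log2 fold change was 3.67, beside 0.01 over all genes tested. The filter on counts asked for 3 samples above a low level. Slc2a5 passed it only through the diabetic samples, and Slc5a1, Slc5a10 and Slc2a2 also needed them. Their place among the genes tested thus depended on the group where they were high. Without the filter Slc5a1, Slc2a2 and Slc2a5 were called and Slc5a10 was not. Scaling by library totals moved the median of all genes by 0.19 and the share of calls that were higher from 51.6 to 72.5% (70.7% with log2(FPKM + 1) values), and no member with a value changed direction under either (Slc2a5 was too low for the FPKM filter). With diabetic samples 1+4 and 3 left out, in which the tubule markers were high, only Pdzk1ip1 was called, with sample 2 alone assumed to vary like the controls. Other settings that ended calls were the loss of single samples (control 1 or control 3+4: 1 called, Pdzk1ip1) and log2(FPKM + 1) values (2 called, Slc2a1 and Pdzk1ip1). Over all genes, 5717 calls became 4283 without control 1, 4111 without control 3+4 and 5680 with log2(FPKM + 1) values.

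Pdzk1ip1 rose in all 3 diabetic samples. Control samples 1, 2 and 3+4 had 1.88, 3.49 and 1.88 CPM, and diabetic samples 1+4, 2 and 3 had 87.5, 62.2 and 34.0 CPM. Sample 2, the lowest of the 3 in the summed tubule markers but above control in some of them, held the middle place. The log2 fold change was 4.68 ± 0.44 (adjusted p = 0.000883 by the edgeR test), and with sample 2 as the only diabetic sample it was 4.72. By FPKM the gene went from 2.01 ± 0.790 to 58.2 ± 26.4 (n = 3 each), and its diabetic range (31.3 to 84.0) overlapped that of Slc2a1 (70.7 to 104). The stretch before its start site (chr4:115088458-115088707, plus strand) is shown because this gene was high in all 3 diabetic samples, with its E-box in capitals, 192 bases before the start:

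Pdzk1ip1: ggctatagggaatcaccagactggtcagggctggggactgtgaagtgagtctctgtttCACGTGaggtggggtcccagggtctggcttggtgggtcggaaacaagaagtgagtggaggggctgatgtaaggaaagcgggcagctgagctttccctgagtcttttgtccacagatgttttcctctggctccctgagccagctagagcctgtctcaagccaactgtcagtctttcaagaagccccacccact

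Slc2a1 was the most abundant of the 10 in glomeruli and rose less steeply. Its values were 131, 174 and 115 CPM in control and 227, 259.9 and 182 CPM in diabetic samples. The lowest diabetic sample was just above the highest control. The log2 fold change was 0.67 ± 0.19 (adjusted p = 0.0349), a 1.59-fold rise, and 0.92 ± 0.25 (adjusted p = 0.0768) with sample 2 as the only diabetic sample. Over single samples left out it ranged from 0.54 to 0.85 and was called in only 2 of 6 such fits. With library totals in place of the composition scaling it was 0.86. With CPM scaled over both tissues together, the rise of each diabetic sample above the control mean came to 185, 233 and 88.5% of the mean level of diabetic cortex (samples 1+4, 2 and 3).

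Slc2a3 was the one member called lower in glomeruli. It was at 3.57, 5.13 and 3.66 CPM in control and 2.74, 2.42 and 2.05 CPM in diabetic samples (-0.77 ± 0.25, adjusted p = 0.0472). All diabetic samples lay below all controls, though the levels were low (86 to 288 counts) and may include reads of Gm4482. It was not called with library totals (-0.59, adjusted p = 0.111) or with any single sample left out. Mesangial markers had 4 of 8 lower in these samples, with sums of 1261 to 1581 CPM in control and 516 to 681 CPM in diabetic samples, and smooth muscle and renin cell markers had 6 of 8 lower (17102 to 19509 and 3188 to 6086 CPM), beside 2 of 10 podocyte markers (4696 to 5878 and 2250 to 4471 CPM). Of all genes tested in glomeruli, 18.2% were called lower. The part of these markers in the change of Slc2a3 was not tested.

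The tubular transporters were high in diabetic samples 1+4 and 3 and close to control in sample 2, the same order as the tubule markers and Xist given above, whose part was not tested. Slc5a2 had 1.96, 1.69 and 2.43 CPM in the control samples, against 44.6, 2.05 and 20.7 CPM in diabetic samples 1+4, 2 and 3 (3.46 ± 0.97, adjusted p = 0.0314). Sample 2 lay within the control range, so the groups overlapped. For Slc5a10 the values were 0.215, 0.370 and 0.242 CPM and 18.7, 0.342 and 8.22 CPM (5.05 ± 1.30, adjusted p = 0.0235), again with sample 2 among the controls and with the overlap named above. Slc5a1 was at 0.242, 0.397 and 0.178 CPM and 7.36, 0.708 and 3.57 CPM (3.87 ± 0.88, adjusted p = 0.0153), with sample 2 above the controls by a small margin. With sample 2 as the only diabetic sample none of these was called (Slc5a2 0.04, Slc5a10 0.35 and Slc5a1 1.43; adjusted p of 0.958, 0.748 and 0.194).

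The same order of samples held among the facilitative carriers of the tubule. Slc2a2 was at 0.510, 0.370 and 0.229 CPM in control and 12.6, 0.731 and 7.08 CPM in diabetic samples (4.24 ± 1.00, adjusted p = 0.0179). Slc2a5 rested on 2, 5 and 7 counts in controls, or 0.0537, 0.132 and 0.0890 CPM, and stood at 5.59, 0.251 and 2.74 CPM in diabetic samples (4.94 ± 1.14, adjusted p = 0.0162). Both were lowest in diabetic sample 2, though above each control. Slc2a4 was at 1.42, 0.688 and 1.03 CPM and 8.68, 1.76 and 4.19 CPM (2.22 ± 0.61, adjusted p = 0.0291). Slc2a9 was at 2.77, 3.70 and 2.95 CPM and 6.67, 2.28 and 4.88 CPM and did not pass the test (0.56 ± 0.39, adjusted p = 0.301). Its sample 2 was below all controls, and it was not called in any of the 15 glomerular alternatives, the one without sample 2 included. With sample 2 alone Slc2a2, Slc2a5 and Slc2a4 were not called (1.04, 1.45 and 0.78; adjusted p of 0.3004, 0.279 and 0.336).

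To set these rises beside those of the tubule markers, each was expressed as a percentage of the gene's mean CPM in diabetic cortex. For this, CPM were scaled over both tissues together, so the percentages differ from those of the CPM printed above. The different annotations and counting of the 2 tissues can also move them. The 12 proximal tubule markers had medians of 6.03, 0.0536 and 2.72% in diabetic samples 1+4, 2 and 3 (ranges 1.73 to 10.5, -0.145 to 2.18 and 0.648 to 4.78%), and the distal markers had medians of 20.1, 0.171 and 10.8%. Slc5a1 (5.58, 0.327 and 2.56%), Slc5a10 (3.48, 0.0114 and 1.48%), Slc2a2 (5.14, 0.143 and 2.78%) and Slc2a5 (5.60, 0.155 and 2.66%) lay within the proximal range in each sample. Slc5a2 lay above it in samples 1+4 and 3 (12.2, -0.00521 and 5.29%). Slc2a9 did so too in these 2 samples and was below the range in sample 2 (13.7, -3.36 and 6.65%). Slc2a4 (31.2, 2.69 and 12.7%) and Pdzk1ip1 (23.9, 16.1 and 8.75%) were above it in all 3. These percentages describe single samples and were not tested.

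**Figure D4:**
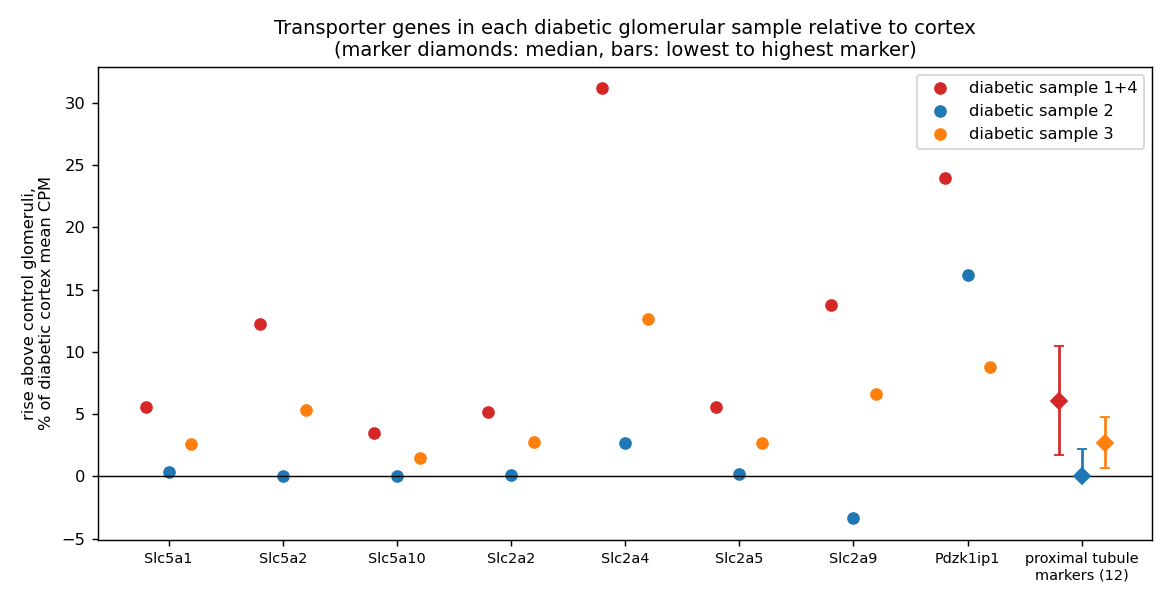
Rise above the control mean in each diabetic glomerular sample as a percentage of the gene's mean CPM in diabetic cortex (y axis), for 8 transporter genes and, as diamonds with bars from lowest to highest, for the median of 12 proximal tubule markers. CPM were scaled over both tissues together. Slc5a1, Slc5a10, Slc2a2 and Slc2a5 lie within the marker bars in all 3 samples, and Pdzk1ip1 is at 16.1% in sample 2, where the marker median is 0.0536%.

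The effect of diabetes differed between glomeruli and cortex for 8 of the 10 genes by the test of the difference itself, where 35.0% of 16507 genes tested were called. It was higher in glomeruli for 7 (18.8% of genes tested) and lower for Slc2a3 (16.2%), whose counts are uncertain because of Gm4482. The log2 differences, glomeruli minus cortex, were 5.15 ± 1.06 for Slc2a5, 4.603 ± 0.415 for Pdzk1ip1, 4.48 ± 0.94 for Slc5a2, 4.42 ± 0.93 for Slc2a2, 3.69 ± 0.84 for Slc5a1, 3.49 ± 1.17 for Slc5a10, 2.74 ± 0.56 for Slc2a4 and -1.71 ± 0.45 for Slc2a3. For Slc2a1 (0.48 ± 0.24, adjusted p = 0.134) and Slc2a9 (0.64 ± 0.37, 0.206) it was not called. With samples 1+4 and 3 left out, sample 2 was the only diabetic glomerular sample, so the spread of that group was not measured. The difference was then 4.66 for Pdzk1ip1 and -1.67 to 1.60 for the others, with Slc2a4 at 1.26 and Slc5a10 at -1.23. The difference for Slc5a10 was not called in 9 of the 14 fits that left out 1 sample. These were without control glomerular samples 1, 2 or 3+4, diabetic glomerular samples 1+4 or 3, control cortex library 4 or diabetic cortex libraries 1, 3 or 4. Their values ranged from 2.35 to 3.69, with adjusted p from 0.0530 to 0.114 by the edgeR test. Of all calls 53.7% were higher, and 68.9% with library totals or 64.3% with log2(FPKM + 1) values.

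Other members of both transporter families gave a mixed picture. For the list counts from here on, the shares of all genes tested were 19.4% higher and 18.2% lower in glomeruli. In cortex they were 10.8% higher and 9.29% lower. In cortex, 1 of 7 other SLC5 genes tested was called, the lactate cotransporter Slc5a12, which fell from 265, 276, 241 and 194 CPM to 103, 116, 97.4 and 124 CPM (-1.14 ± 0.12, adjusted p = 0.000450). As with Slc5a2, all diabetic libraries were below all controls. Among 5 other SLC2A genes tested, Slc2a12 (GLUT12) fell from 16.3, 16.4, 14.6 and 13.9 CPM to 8.33, 8.03, 7.94 and 10.4 CPM (-0.82 ± 0.11, adjusted p = 0.00144). The medians of these lists were -0.27 and -0.04. In glomeruli 3 of 7 SLC5 genes rose, the inositol cotransporter Slc5a11, the monocarboxylate cotransporter Slc5a8 and the iodide cotransporter Slc5a5 (8 to 14 counts in all controls for Slc5a11 and Slc5a5), and the choline transporter gene Slc5a7 fell (-3.05 ± 0.68); the list's median was 2.38. Of 5 SLC2A genes 3 fell: Slc2a8 from 16.8, 14.7 and 15.6 CPM to 9.54, 7.56 and 9.67 CPM (-0.81 ± 0.14, adjusted p = 0.00544), Slc2a10 (-1.44 ± 0.26) and Slc2a6 (-2.32), with a median of -0.81.

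Partners and regulators of glucose reabsorption were called higher in 9 of 11 and lower in 1 of 11 tested cases in diabetic glomeruli (median 3.26). Hnf4a, which encodes a transcription factor of proximal tubule and liver and is named here after its values were seen, was at 28.9, 1.26 and 11.8 CPM in diabetic samples and at 0.903 to 1.29 CPM in controls, with sample 2 within the control range. Fxyd2, a subunit of the sodium pump, rose to 201, 21.5 and 89.7 CPM from at most 6.85 CPM. Arrdc4, a glucose-responsive arrestin, rose to 41.1, 40.4 and 38.4 CPM from 17.2 to 26.0 CPM (0.97 ± 0.17), and Sgk1, a kinase that regulates transporters, was the 1 gene that fell, named for that reason (-0.77 ± 0.19). In cortex 3 of 12 were called, near the 20.1% of all genes tested there (9.29% lower). All 3 were lower (median -0.17 for the list), among them the sodium-proton exchanger gene Slc9a3 (-0.38 ± 0.09) and Hnf4a (-0.39 ± 0.10).

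Of the first enzymes of hexose use, 5 of 8 rose in diabetic glomeruli (median 1.99). The hexokinase gene Hk2 went from 22.8, 45.1 and 21.2 CPM to 119.7, 145 and 104 CPM and was highest in sample 2. Hkdc1, a hexokinase-like gene, rose from 0.0269 to 0.102 CPM to 4.70, 2.58 and 3.98 CPM. By contrast, the glucose-6-phosphatase gene G6pc (28.1, 0.753 and 12.3 CPM from 0.430 to 1.19 CPM) was within the control range in sample 2. In cortex 1 of 7 tested was called: G6pc fell from 587, 524, 830.3 and 436 CPM to 361, 303, 301 and 293 CPM (-0.92 ± 0.18, adjusted p = 0.00724), with a list median of 0.04. Urate handling genes, which Slc2a9 belongs with, were called higher in 5 of 5 tested cases in glomeruli (median 3.25), where the exporter gene Abcc4 went from 20.98, 43.6 and 23.1 CPM to 222, 262 and 129.8 CPM. The exporter gene Abcg2 rose by 0.59 ± 0.14 on the log2 scale, and Slc17a1 (21.3, 1.46 and 10.2 CPM from 0.750 to 1.18 CPM) and Slc22a12, which encodes the urate exchanger URAT1 (81.1, 5.05 and 38.8 CPM from 2.26 to 4.603 CPM), were close to control in sample 2. Abcc4 was also the 1 gene of 6 called in cortex, from 44.7, 40.9, 48.6 and 65.6 CPM to 91.6, 83.7, 96.4 and 89.8 CPM (0.85 ± 0.13, adjusted p = 0.00243), with a median of -0.15.

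The genes whose pattern across the 8 cortex libraries was most like that of Slc5a2, by the root mean square difference of centred log2 CPM over 12157 genes, were Tmem64 (0.105), Fam151a (0.120) and B3galnt1 (0.127). Their log2 fold changes were -0.93, -0.94 and -0.90, near that of Slc5a2 because the choice used control and diabetic libraries together. Nearest to Slc2a2 in cortex were Nmnat3 (0.0645), Car15 (0.0681) and Smn1 (0.0749). Across the 6 glomerular samples Noct (0.0422), Tgm2 (0.0698) and Aldh1a2 (0.0711) were nearest to Slc2a1, of 12146 genes. These distances are descriptions over few samples.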

How the data were processed

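Per the labels' protocols, 1.3 µg of RNA per library entered a SMARTER mRNA-Seq preparation. The submitters' processing notes name GRCm38 and mm10; aligner, counter and strand use: not given in the sources used here. The authors deposited raw read counts per gene for glomeruli, estimated counts per gene (already whole numbers) for cortex, and FPKM for both. Of 24722 glomerular symbols, 19765 matched GENCODE M21 directly, 323 by synonym and 4634 not. The 10 genes, the pathway lists and the marker lists were chosen with earlier results of these data known. All 10 were named, and of each list the called genes, up to 4 with the smallest adjusted p; some list genes are not reported here.

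Each tissue was fitted with edgeR 4.0.16 in R 4.3.3 (filterByExpr, TMM scaling, robust quasi-likelihood test, Benjamini-Hochberg adjustment over all genes, threshold 0.05). A model of all 4 groups over 19043 joined genes gave contrasts between tissues. DESeq2 1.42.0, limma 3.58.1 on log2(FPKM + 1) or log2(FPKM + 0.1), library totals, no filter and left-out samples were alternatives. Replicate numbers were checked for pairing (correlations of same-numbered deviations -0.058 to 0.107 in glomeruli and -0.103 to 0.043 in cortex) and did not pair the samples. The fit was also run on simulated counts in which all diabetic samples changed alike, unlike the glomerular samples here. The outcome of that run is not reported here. Cortex ratios were compared by exact permutation tests. Promoter sequences are from RefSeq.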

Additional observations from a re-analysis of the deposited data

Results flagged for a closer look

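Of 28 sets of 4 cortex libraries tested, control and diabetic, for genes and ratios, 5 held 1 library far from the others, and in each it was control library 4. Chance flags about 1 in 20 sets, but these sets share genes and libraries and are not independent. Slc5a1 was highest there at 111.1 CPM and Slc2a9 lowest at 18.58 CPM. The FPKM ratios of Slc5a10 to Slc5a2 (0.5826), Slc5a1 to Slc5a2 (0.2141) and Slc2a1 to Slc2a2 (0.4245) were highest there. In the same library the distal tubule markers summed to 9159 CPM, above the other controls (5561 to 6977 CPM), and their part was not tested.

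The diabetic effect differed between glomeruli and cortex, by the test of the difference, for 8 of the 10 genes. Of all genes tested, 35.0% were called. The log2 differences, glomeruli minus cortex, were 3.694 for Slc5a1, 4.481 for Slc5a2, 3.49 for Slc5a10, 4.418 for Slc2a2, 2.735 for Slc2a4, 5.146 for Slc2a5, 4.603 for Pdzk1ip1 and -1.705 for Slc2a3. Leaving out diabetic samples 1+4 and 3 left 1 diabetic glomerular sample. The difference was then 4.66 for Pdzk1ip1 and -1.67 to 1.60 for the others, with Slc5a10 at -1.23.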

How the results depend on the processing

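For the 10 genes in glomeruli, the 9 calls became 2 with log2(FPKM + 1) values, with or without a filter, 5 with log2(FPKM + 0.1), 6 without a filter on counts, 1 to 7 when single samples were left out, and 1 with diabetic samples 1+4 and 3 left out, when 2293 genes in all were called. In cortex the 3 calls became 3 to 5 with single libraries left out, 4 with DESeq2 and 2 with log2(FPKM + 1) values and no filter, where Slc2a4 was lost. For the difference between tissues the 8 calls became 5 with log2(FPKM + 1) values, 7 to 9 with single samples left out, and 2 with samples 1+4 and 3 left out (3747 genes in all). Over all genes in cortex, 3856 calls became 2401 with log2(FPKM + 1) and no filter, 4752 with DESeq2 and 2528 to 4715 with single libraries left out. Direction reversed for Slc2a9 without samples 1+4 and 3 (glomeruli -0.43, difference -0.37), for the difference of Slc5a10 (-1.23), and in cortex for Slc2a9 without diabetic library 2 (range -0.1356 to 0.0208 over single libraries left out) and Pdzk1ip1 without control library 4 (-0.00096 to 0.1722), neither called in any cortex fit. The causes were not tested. All 10 tissue contrasts in controls were called under each alternative run. The log2 ratio of Slc5a10 to Slc5a2 in cortex, with libraries left out after seeing the data, was 2.444 to 2.894. With the replicate number as a block, 2375 genes were called in cortex, with the 3 transporter calls kept. In glomeruli 8 of the 10 were called with it, beside 6992 genes in all. Same-numbered samples were not shown to be paired.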
